A study of Homo sapiens with 4 samples.

Results

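The BCR-ABL signalling genes of K562 are 10 genes of the oncogene that defines this cell line and of the pathways it drives: BCR, ABL1, CRKL, GAB2, STAT5A, STAT5B, SOCS2, PIM1, MYC and BCL2L1. They were taken by gene symbol from a table of 58037 genes, and each symbol matched 1 gene. K562 is an established line from a patient with chronic myeloid leukaemia in blast crisis, with erythroid and megakaryocytic features. DROSHA is the nuclear RNase III that cuts primary microRNA transcripts into hairpins. Cells were infected with a CRISPR lentivirus against DROSHA (DROSHA knockdown, 2 libraries) or with a non-specific CRISPR lentivirus (control, 2 libraries), and total RNA of whole-cell lysates was sequenced. All 4 libraries carried a CRISPR virus, were selected with puromycin at 2.5 ng/μl and came from passages 25 to 30. The sources used here do not state whether the infected cells were a pool or a clone, nor whether the libraries of a group came from separate cultures, so the spread behind every p-value may be technical only.

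BCR-ABL is a fusion of the first exons of BCR on chromosome 22 with most of ABL1 on chromosome 9. The coiled coil of BCR joins fusion proteins together, and the ABL1 tyrosine kinase is then always on. It phosphorylates adaptors such as CRKL and GAB2, which lead to RAS-MAPK and PI3K-AKT signalling, and it activates STAT5, which switches on survival and feedback genes such as BCL2L1, PIM1, SOCS2 and CISH. The rows of BCR and ABL1 count reads of the normal alleles and of the fusion together, and the table does not separate them.

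None of the 10 genes was called at an adjusted p under 0.05 in the authors' deposited table, where 0.351% of 14231 tested genes were called, 0.33% as higher and 0.0211% as lower in knockdown cells. All 10 had an adjusted p, with means of 2964 to 21458 normalised reads, above those of 78.5% to 98.8% of tested genes. A normalised read is a read divided by the size factor of its library. Unadjusted p-values were read back from the adjusted ones and are upper limits where genes share an adjusted value. At such a p under 0.05 there was 1 of the 10, STAT5A, which was lower in knockdown cells; 6.8% of tested genes reached that p, and 3.2% did so as lower. Of the fold changes, 7 lay below 0 and 3 above it, beside 54.9% of tested genes below 0, and the median log2 fold change of the 10 was -0.17, beside -0.027 over all tested genes.

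DROSHA had 2769.9 and 2734 normalised reads in the knockdown libraries, against 6077 and 6107 in the control libraries. Its level was therefore 45.2% of that in control cells. The authors' deposited table gives it a log2 fold change of -1.15, adjusted p 8.1e-14. That table does not say which group its fold changes have on top. The negative value of DROSHA was taken to mean knockdown over control. DROSHA is thus no independent check of the labels, and all directions depend on this choice.

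The values of single libraries were not given by the table and were worked back from the printed means. The 4 sets of reads over 14121 genes came to 24693576 and 31294280 reads in the knockdown libraries, against 28408461 and 37251030 reads in the control libraries. They could not be tied to replicate numbers and are called the shallower and the deeper library of their group, always in that order. The 9 K562 and erythroid markers had means of 762 to 156201 normalised reads and none was called. Of 9 markers of other blood lineages, 1 was at 0 and 5 were under 10 normalised reads. Of 7 fibroblast and epithelial markers, 1 was under 10 and the highest, vimentin, reached 9241. None of these 16 was called either.

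Mature microRNAs, the products of DROSHA and DICER1, are not captured by this kind of library. MicroRNAs bind targets through their seed, bases 2 to 8. The following 4, from RefSeq, are shown because each is reported in other studies as a repressor of a gene described here. These genes are MYC and BCL2L1 for let-7a, MYC for miR-34a, ABL1 for miR-203a and PIM1 for miR-33a. Capitals mark the seed.
hsa-let-7a-5p: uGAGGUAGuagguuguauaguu
hsa-miR-34a-5p: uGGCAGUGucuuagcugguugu
hsa-miR-203a-3p: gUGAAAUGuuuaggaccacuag
hsa-miR-33a-5p: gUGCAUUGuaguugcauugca

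No 2 of the 4 share a seed. Matches to the seeds were searched in 1 3′ untranslated region (UTR) per gene, the longest among its GENCODE 29 basic coding transcripts, on the sense strand. The following 3 sites on hg38 are shown because each is the match of a microRNA to its named gene and is followed by an A, a context known to favour repression. Capitals mark the 7 bases that pair with the seed.
BCL2L1 and let-7a, chr20:31664989-31665016, minus strand: ccagggtcttccCTACCTCaggcaggaa
ABL1 and miR-203a, chr9:130886745-130886772, plus strand: gagttcttgaagCATTTCAaagccctgc
PIM1 and miR-33a, chr6:37174813-37174840, plus strand: aaaatgcacaaaCAATGCAatcaacaga

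The let-7a match CTACCTC was present in 2 of the 10 genes, BCL2L1 and GAB2, and in 9.58% of 19114 UTRs. The miR-34a match CACTGCC was in ABL1 and SOCS2 and in 15.6% of UTRs, the miR-203a match CATTTCA in ABL1 and in 20.0%, and the miR-33a match CAATGCA in BCR, PIM1, STAT5A and CRKL and in 8.43%. The UTR of MYC that was searched, 476 bases long, held neither the let-7a nor the miR-34a match. The median UTR of the 10 genes was 2253.5 bases long, against 1084 bases over all UTRs searched. A match describes letters only and not binding, and the levels of these microRNAs were not measured in either group. Whether the matches bear on the fold changes was not tested. The log2 fold changes of the 3 genes with sites shown above were -0.18 for BCL2L1, 0.012 for ABL1 and -0.16 for PIM1 in the authors' deposited table, and none was called.

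BCR carries the coiled coil of the fusion. It lies on chromosome 22 (chr22:23179704-23318037 on hg38, plus strand). It had 5317 and 6077 normalised reads in the knockdown libraries, against 5579.8 and 6899 in the control libraries. The groups overlapped, since the deeper knockdown library was above the shallower control library. The log2 fold change of BCR was -0.13 by the authors' deposited table, at an adjusted p of 0.941. Its refitted standard error was 0.16, which gives a 95% interval of -0.44 to 0.17. Of the 50-base windows of the BCR transcript, 14.9% also occur in other genes and 11% in the pseudogene BCRP2, so part of its reads could have been counted elsewhere or not at all.

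ABL1, the tyrosine kinase of the fusion, lies at chr9:130713946-130887675 on the plus strand. It had 8947 and 7801 normalised reads in the knockdown libraries, against 7379 and 9226 in the control libraries. Both knockdown libraries lay between the control libraries. Its log2 fold change was 0.012 by the authors' deposited table, at an adjusted p of 0.999, and the interval from the refitted standard error of 0.16 ran from -0.29 to 0.32. None of the 50-base windows of ABL1 occurred in another gene.

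The nearest tested protein-coding genes on either side of both loci were also uncalled in the authors' deposited table. On chromosome 22 their log2 fold changes were -0.032 for PRAME, 0.14 for ZNF280A, -0.041 for ZNF70 and 0.18 for CHCHD10. On chromosome 9 the authors' deposited table gave 0.17 for EXOSC2, -0.13 for FUBP3, -0.073 for AIF1L and 0.022 for NUP214.

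**Figure D1:**
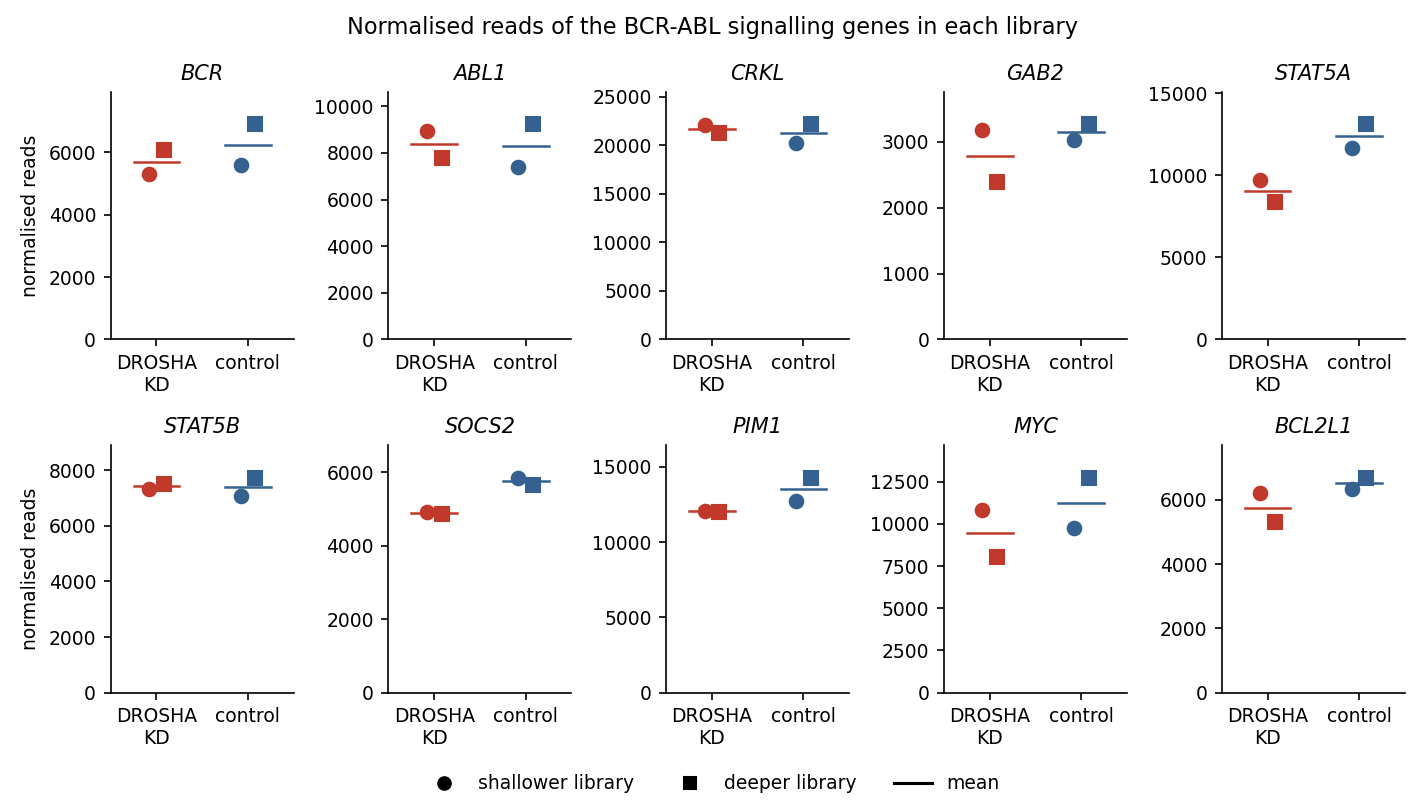
Normalised reads of each of the 10 genes (vertical axes from 0, 1 scale per gene) in the DROSHA knockdown libraries, left, and in the control libraries, right; circles are the shallower and squares the deeper library of a group, and lines are group means. STAT5A, SOCS2, PIM1 and BCL2L1 have both knockdown libraries below both control libraries, with STAT5A at 9684 and 8341 against 11630.2 and 13103.

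CRKL is an adaptor of SH2 and SH3 domains, and its phosphorylation is a common readout of BCR-ABL kinase activity. It lies at chr22:20917426-20953749 on the plus strand and had the most reads of the 10 genes. Its normalised reads were 22057 and 21321 in the knockdown libraries, against 20285 and 22170.1 in the control libraries. The knockdown values fell inside the range of the control values. The authors' deposited table gave a log2 fold change of 0.031 (adjusted p 0.990), and the refitted 95% interval was -0.23 to 0.29.

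GAB2 is a scaffold that is recruited to BCR-ABL through GRB2 and binds the PI3K subunit p85 and the phosphatase SHP2. It lies at chr11:78215297-78418348 on the minus strand. GAB2 had 3174 and 2392 normalised reads in the knockdown libraries, against 3023 and 3266 in the control libraries. The shallower knockdown library was within the control range and the deeper one below it, 1.33-fold apart from each other. Its log2 fold change was -0.18 by the authors' deposited table, at an adjusted p of 0.917, and the refitted interval was -0.50 to 0.15. Without the deeper knockdown library the ratio of group means gave 0.014, and without the shallower one -0.39, so the sign of the value for GAB2 rests on 1 library.

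STAT5A and STAT5B are transcription factors that BCR-ABL and the JAK kinases activate by tyrosine phosphorylation. They are neighbours in opposite orientation on chromosome 17, STAT5A at chr17:42287547-42311943 on the plus strand and STAT5B at chr17:42199168-42276707 on the minus strand. The 50-base windows found in both transcripts are 11.9% of those of STAT5A and 10.0% of those of STAT5B.

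STAT5A had the most negative fold change of the 10 genes. Its normalised reads were 9684 and 8341 in the knockdown libraries, against 11630.2 and 13103 in the control libraries. Both knockdown libraries lay below both control libraries, and the mean in knockdown cells was 72.9% of that in control cells. STAT5A had a log2 fold change of -0.46 by the authors' deposited table, at an adjusted p of 0.184, so it was not called over all tested genes. Its refitted standard error was 0.14 and its 95% interval, without adjustment, was -0.74 to -0.17. An exact permutation test of 2 against 2 libraries cannot go below a 2-sided p of 0.333. In bulk RNA, fewer cells that express a gene and less of its RNA per cell cannot be told apart.

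For STAT5B, normalised reads were 7326 and 7503 in the knockdown libraries, against 7083 and 7733 in the control libraries. All 4 values lay within 1.09-fold of each other, the span of the control libraries. The authors' deposited table gave a log2 fold change of 0.0012 with an adjusted p of 0.999, and the refitted interval was -0.26 to 0.27. The intervals of STAT5A and STAT5B overlapped, and the difference between the paralogs was not tested.

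Targets of STAT5 among the 10 genes are SOCS2, PIM1 and BCL2L1. SOCS2 is a suppressor of cytokine signalling and part of the feedback on JAK-STAT pathways; its gene is at chr12:93569814-93583487 on the plus strand. It had 4913 and 4858 normalised reads in the knockdown libraries, against 5862 and 5664 in the control libraries. The libraries of each group differed by at most 1.04-fold, the groups did not overlap, and knockdown cells were at 84.8% of control cells. The log2 fold change of SOCS2 was -0.24 by the authors' deposited table, at an adjusted p of 0.757, and the refitted interval of -0.50 to 0.024 included 0. The span of the antisense gene SOCS2-AS1 (chr12:93542463-93571768) covers 1334 exon bases of SOCS2, and its own row had a mean of 277 normalised reads. Without a stated strand setting, it is not known to which gene reads in the shared stretch were assigned.

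PIM1, a serine/threonine kinase that promotes survival, lies at chr6:37170203-37175426 on the plus strand. It had 12056 and 12014 normalised reads in the knockdown libraries, against 12698 and 14282 in the control libraries. The groups did not overlap, and the gap between them was smaller than the distance between the control libraries. The authors' deposited table gave a log2 fold change of -0.16 (adjusted p 0.891), with a refitted interval of -0.43 to 0.10.

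BCL2L1 encodes BCL-XL, an inhibitor of mitochondrial apoptosis, and lies at chr20:31664452-31723989 on the minus strand. Its normalised reads were 6209.9 and 5305 in the knockdown libraries, against 6347 and 6696 in the control libraries. The groups did not overlap, but the shallower knockdown library came close to the shallower control library. BCL2L1 had a log2 fold change of -0.18 by the authors' deposited table, at an adjusted p of 0.885, and the refitted interval was -0.46 to 0.10.

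With STAT5A, these 3 genes made 4 of the 10 in which both knockdown libraries lay below both control libraries. Over 14121 genes with values per library, 23% were arranged in that way. There were 0 of the 10 genes with both knockdown libraries above both control libraries, an arrangement found in 18.5% of genes.

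MYC, the transcription factor that drives growth and ribosome synthesis, is needed for transformation by BCR-ABL and lies at chr8:127735434-127741434 on the plus strand. It had 10841 and 8024 normalised reads in the knockdown libraries, against 9748 and 12743 in the control libraries. The groups overlapped and MYC had the widest spread of the 10 genes in each group, 1.35-fold between the knockdown libraries and 1.31-fold between the control libraries. Its log2 fold change was -0.25 by the authors' deposited table, at an adjusted p of 0.852. The refitted standard error of 0.18 gave an interval of -0.61 to 0.097. Leaving out 1 library moved the ratio of group means to between -0.49 and -0.047.

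**Figure D2:**
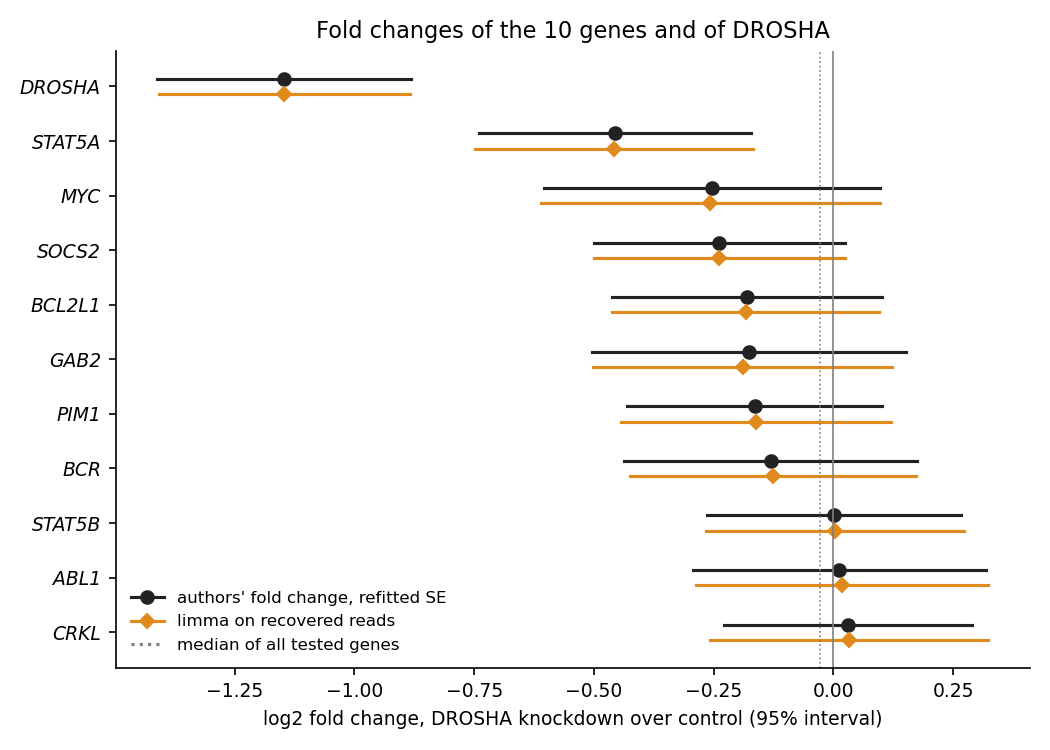
Log2 fold change of DROSHA knockdown over control for the 10 genes and DROSHA (horizontal axis), with 95% intervals without adjustment; black circles are the authors' values with standard errors refitted from the recovered reads, orange diamonds are limma on the same reads, and the dotted line is the median of all tested genes, -0.027. Apart from DROSHA, only the intervals of STAT5A exclude 0, and its adjusted p was 0.184.

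A second test, limma on the log2 of the recovered reads, gave 0 of the 10 genes at an adjusted p under 0.05, where it called 0.191% of 14121 genes. At an unadjusted p under 0.05, which 9.56% of genes reached and 4.31% as lower, it found 1 of the 10, again STAT5A, with a log2 difference of -0.46, a 95% interval of -0.75 to -0.17 and limma's adjusted p at 0.345. The half-widths of limma's intervals for the 10 genes were 0.26 to 0.35 on the log2 scale. DROSHA had an adjusted p of 0.00029 in limma.

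**Figure D3:**
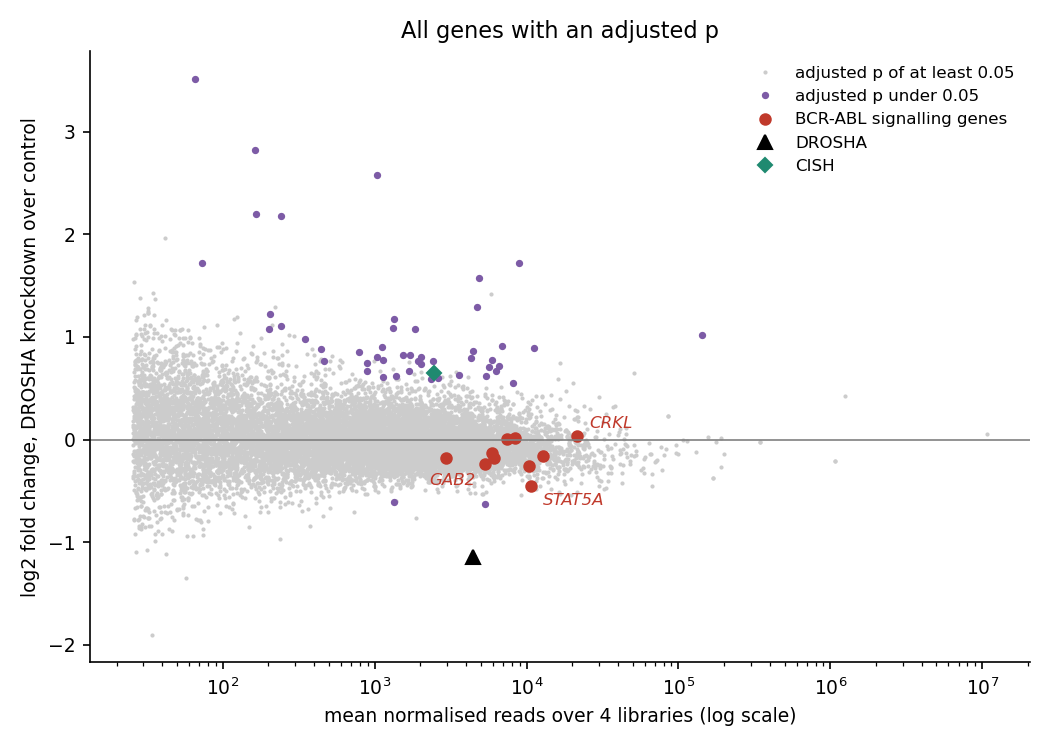
Log2 fold change of DROSHA knockdown over control (vertical axis) against the mean of normalised reads over the 4 libraries (horizontal log axis) for 14231 tested genes, with the called genes in purple, the 10 BCR-ABL signalling genes in red, DROSHA as a triangle and the uncalled CISH as a diamond. The 10 genes lie at high means within the band of uncalled genes.

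The spread between the libraries of a group was set beside that of other abundant genes. Among 4246 genes with means of 2000 to 25000 normalised reads, the libraries of a group differed by a median of 1.09-fold in knockdown cells and 1.10-fold in control cells, and 95% of genes differed by less than 1.38-fold and 1.28-fold in these groups. The deeper control library was above the shallower one in 9 of the 10 genes, SOCS2 being the exception, and in 40.8% of the 4246 genes. The shallower knockdown library was above the deeper one in 8 of the 10 genes, all but BCR and STAT5B, and in 63.4% of the 4246. The part of these library differences in the fold changes was not tested beyond leaving out each library.

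**Figure D4:**
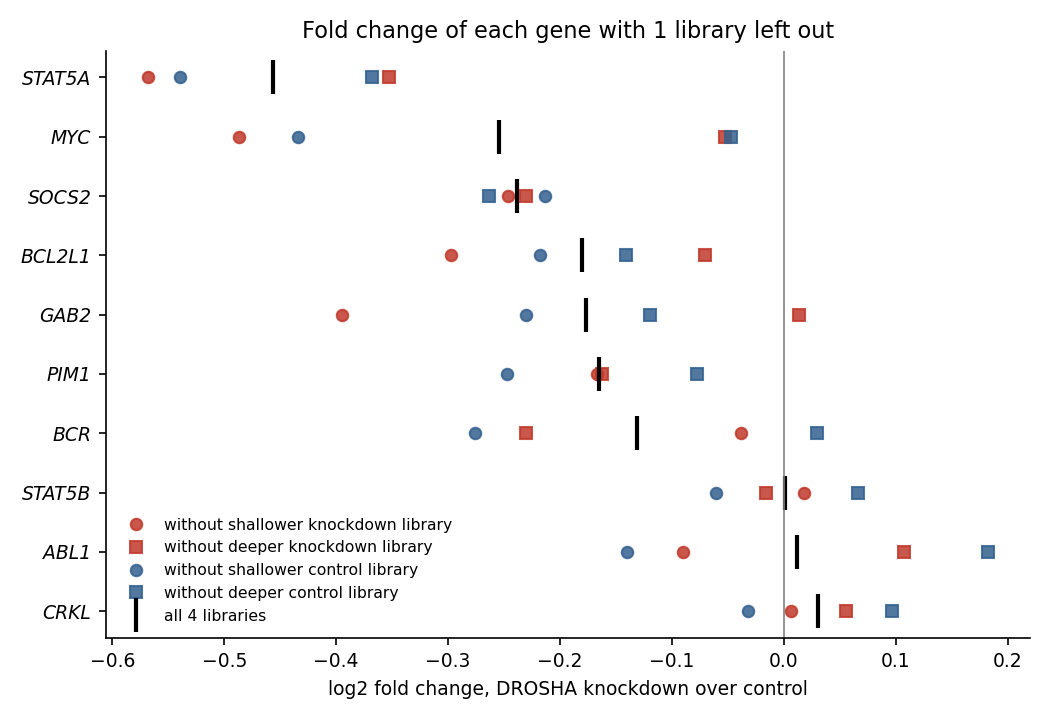
Log2 ratio of group means, DROSHA knockdown over control (horizontal axis), for each of the 10 genes with 1 of the 4 libraries left out; red marks leave out a knockdown library and blue marks a control library, circles the shallower and squares the deeper one, and black bars are the authors' fold changes from all 4. STAT5A stays between -0.57 and -0.35 and SOCS2 between -0.26 and -0.21, while BCR, ABL1, STAT5B, CRKL and GAB2 lie on both sides of 0.

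Levels were set side by side per kilobase of merged exons, the exons of all annotated transcripts of a gene. This length exceeds that of the transcript used for UTRs by unlike amounts. It is 12389 against 7082 bases for BCR and 6776 against 3733 for SOCS2, but 5325 by both for CRKL. The order between genes may therefore change with the length used, and no other length was tried. Per kb of merged exons, PIM1 (4287 normalised reads per kb over the 4 libraries), CRKL (4030) and MYC (3445) were highest. Neighbours in this order overlapped over single libraries. STAT5A (1858) and BCL2L1 (1853) came next and overlapped each other. They were followed by ABL1 (1329) and STAT5B (1150), which overlapped, then by SOCS2 (786), and last by BCR (482) and GAB2 (438), which overlapped. Among neighbours in the order, there was no overlap between MYC and STAT5A, BCL2L1 and ABL1, STAT5B and SOCS2, or SOCS2 and BCR. Beyond neighbours, the lowest library of STAT5A (1449.5 normalised reads per kb) was below the highest of ABL1 (1470.1). The order of group means within 2 pairs changed between the groups. In knockdown cells CRKL averaged 4073 normalised reads per kb and PIM1 4043, and in control cells CRKL averaged 3986 and PIM1 4531. In knockdown cells STAT5A averaged 1566 normalised reads per kb and BCL2L1 1737, and in control cells STAT5A averaged 2149 and BCL2L1 1968. Both pairs overlapped in the knockdown libraries, CRKL at 4142 and 4004 against PIM1 at 4050 and 4036. STAT5A was at 1683 and 1450 there, against BCL2L1 at 1874 and 1601. In the control libraries neither pair overlapped, with STAT5A at 2021 or more and BCL2L1 at 2020 or less. None of these genes was called, and the change of order was not tested.

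Around the 10 genes, 6 lists of related genes held 100 tested rows, and 0 of them were called in the authors' deposited table, beside the 0.351% of all tested genes. By the p-values read back from the authors' adjusted ones, mostly upper limits, at least 9 of the 100 rows were under 0.05, beside at least 6.8% of all tested genes. Refitted p-values, which 92 of the rows had, were under 0.05 in 10, the added row being the MYC target ODC1 with a refitted p of 0.0489. In limma 9 of 97 rows had an unadjusted p under 0.05, beside 9.56% of genes.

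JAK-STAT genes and STAT5 targets had 15 tested genes, 6 above and 9 below 0, with a median log2 fold change of -0.099. The highest was CISH, an inhibitor of cytokine receptor signalling that STAT5 induces. CISH had 3389.5 and 2643 normalised reads in the knockdown libraries, against 1602 and 2238 in the control libraries. Both knockdown libraries lay above both control libraries, and the libraries of a group differed by 1.28-fold in knockdown and 1.40-fold in control cells. Its log2 fold change was 0.65 by the authors' deposited table, at an adjusted p of 0.122, and its refitted standard error was 0.19.

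Other genes of this list, feedback genes among them, did not share one sign. SOCS1, with 129 and 104 normalised reads in knockdown libraries against 74.1 and 87.0 in control libraries, had a log2 fold change of 0.53 in the authors' deposited table. SOCS3 had 1254 and 1176 normalised reads in knockdown libraries, against 1398 and 1459.8 in control libraries, and -0.23 in the same authors' deposited table. ID1, a regulator of differentiation, had 1497 and 1994 normalised reads in knockdown libraries against 2001 and 2225 in control libraries, and was lowest of the list at -0.27 in the authors' deposited table. PIM2, a kinase related to PIM1, had 6168 and 6156 normalised reads in knockdown libraries, against 6655 and 7523 in control libraries. Its log2 fold change was -0.20 in the authors' deposited table. PIM3, another relative of PIM1, had 672 and 821 normalised reads in knockdown libraries, against 600 and 966 in control libraries. The groups overlapped for PIM3, and its log2 fold change was -0.070 in the authors' deposited table. None of these was called, and the difference between CISH and the STAT5 targets with negative values was not tested.

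STAT5 binds palindromes of the form TTCNNNGAA. The RefSeq promoters of GRCh38.p14, 250 bases before to 50 after a gene's start, covered 8 of the 10 genes with 12 promoters, and 0 held the motif on either strand, beside 7.66% of 35116 promoters. MYC and SOCS2 had none to search. The E-box CACGTG bound by MYC was also in 0 of the 12 and in 7.26% of all. CISH held 4 non-overlapping matches of the STAT5 form, and the stretches below are shown because its value was the highest of the list; capitals mark the matches.
CISH, first pair, chr3:50611996-50612015, minus strand: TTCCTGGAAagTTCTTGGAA
CISH, second pair, chr3:50611878-50611903, minus strand: TTCTAGGAAgacgctgcTTCCGGGAA
No match in a window says only that these letters are not there.

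Adaptors and RAS-MAPK genes had 23 tested members, 9 above and 14 below 0, with a median of -0.062. MAP2K1, which encodes the kinase MEK1, had 1692 and 1591 normalised reads in the knockdown libraries, against 1121 and 1349 in the control libraries, and did not overlap between the groups. Its log2 fold change was 0.41 by the authors' deposited table, at an adjusted p of 0.485. CBL, the ubiquitin ligase that tags active receptors and kinases, had 2228 and 2115 normalised reads in the knockdown libraries, against 2547 and 2870.02 in the control libraries, and a log2 fold change of -0.32 by the authors' deposited table, at an adjusted p of 0.615. DOK2, an inhibitory adaptor and BCR-ABL substrate with a mean of 40.6 normalised reads, was lowest at -0.36 in the authors' deposited table.

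PI3K-AKT-mTOR genes had 19 tested rows, 10 above and 9 below 0, with a median of 0.0037. PIK3R3, a regulatory subunit of PI3K, has 2 rows in the table. The row with more reads had 863 and 963 normalised reads in the knockdown libraries, against 646 and 627 in the control libraries, with a log2 fold change of 0.52 by the authors' deposited table, at an adjusted p of 0.240. For the other row the authors' deposited table gives 0.36, adjusted p 0.804. PIK3R2, another regulatory subunit, had 2106 and 1609 normalised reads in the knockdown libraries, against 2157 and 2606 in the control libraries, and -0.36 by the authors' deposited table, at an adjusted p of 0.669. INPP5D, the phosphatase SHIP1, had a mean of 38.3 normalised reads and, in the authors' deposited table, a log2 fold change of -0.30.

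The MYC network and its targets had 19 tested genes, 9 above and 10 below 0, with a median of -0.022. MAX, the partner with which MYC binds DNA, had 2337 and 1882 normalised reads in the knockdown libraries, against 2830.2 and 2777 in the control libraries. MAX did not overlap between the groups, and its log2 fold change was -0.41 by the authors' deposited table, at an adjusted p of 0.435. MXI1, a MAX partner that opposes MYC, had -0.28 in the authors' deposited table with an adjusted p of 0.762, and MXD3 of the same family had 0.42 with an adjusted p of 0.511. NCL, the nucleolar protein nucleolin and a MYC target, was highest at 0.47 in the authors' deposited table with an adjusted p of 0.955. The p-value read back from the authors' adjusted one was at most 0.472 for NCL, against 0.0142 for MXD3. The reads of NCL per library could not be recovered. At its mean, libraries of a group more than 2-fold apart were not allowed, and whether NCL was such a gene was not tested.

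The BCL2 family had 12 tested genes, 6 above and 6 below 0, with a median of 0.0038. BCL2, an inhibitor of apoptosis like BCL-XL, had 92.2 and 147 normalised reads in the knockdown libraries, against 153 and 146 in the control libraries, with a log2 fold change of -0.31 by the authors' deposited table, at an adjusted p of 0.929. BAD, which promotes apoptosis, had -0.29 in the authors' deposited table. BMF and PMAIP1, which also promote apoptosis, were highest at 0.48 and 0.21 in the authors' deposited table, where their adjusted p-values were 0.891 and 0.917.

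Tyrosine kinases and phosphatases had 13 tested genes, 7 above and 6 below 0, with a median of 0.0069. In the authors' deposited table the kinase FES was lowest at -0.40 with a mean of 48.0 normalised reads, followed by SET, an inhibitor of the phosphatase PP2A, at -0.25. SET had 41716 and 36799.9 normalised reads in the knockdown libraries, against 48752 and 44725 in the control libraries, without overlap, and the authors' deposited table gives it an adjusted p of 0.739. KIAA1524, which also inhibits PP2A, and the SRC family kinase YES1 were highest at 0.18 and 0.11 in the authors' deposited table.

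**Figure D5:**
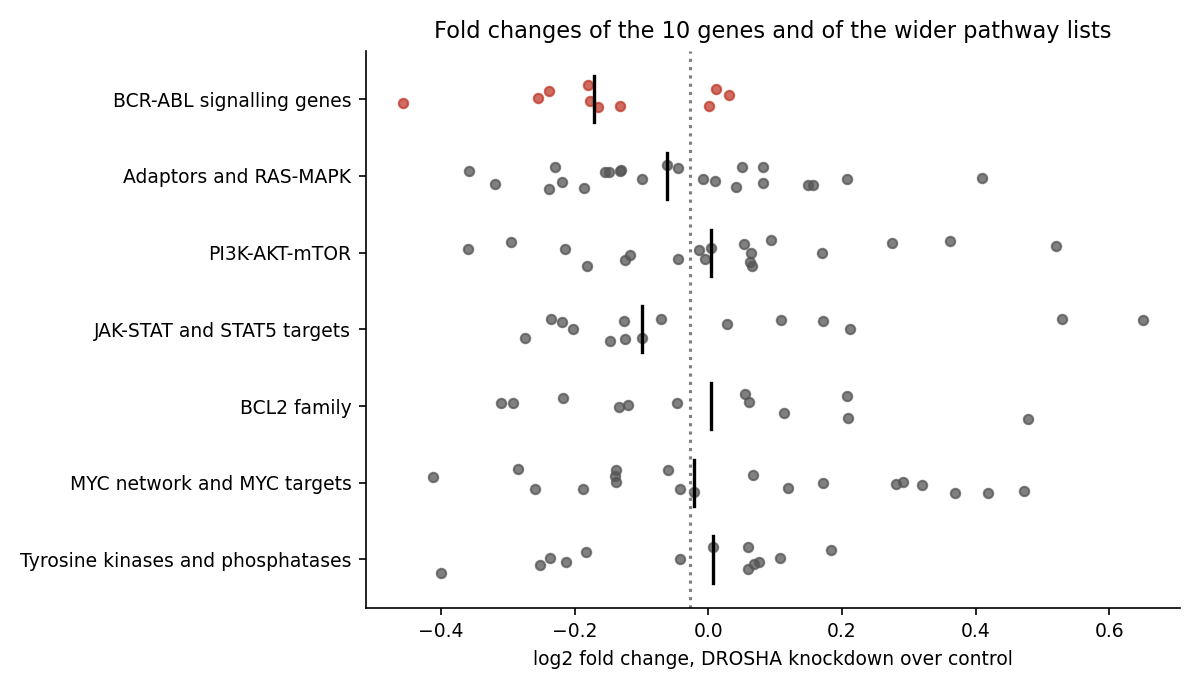
Log2 fold change of DROSHA knockdown over control (horizontal axis) for the 10 BCR-ABL signalling genes, red, and the tested genes of the 6 wider lists, grey. Each point is a tested row of a list, so PIK3R3 and CCND2 are drawn more than once. Black bars are list medians, the dotted line is the median of all tested genes, and vertical offsets only separate points. Medians range from -0.17 for the 10 genes to 0.0069 for tyrosine kinases and phosphatases, and CISH is the point farthest right at 0.65.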

How the data were processed

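Per the file headers, the table deposited by the authors holds for every gene a signal (the mean of normalised reads over 4 libraries), the log2 fold change of their comparison and its p-value after adjustment. Named in the submitters' processing notes are STAR 2.6.0a, Bowtie2 2.3.4.1, DESeq2 1.24.0 and hg38. The TruSeq Stranded Total RNA kit was used, per the labels' protocols. Which counter, strand setting and annotation release were used is not given in the sources used here. A second log2 column deposited by the authors has no stated assay or direction and was not used. The table has 0 columns of single libraries, so the test planned for such columns could not be the main one, and the authors' adjusted p at 0.05 was used, with p-values of their DESeq2 test adjusted over 14231 genes.

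Reads per library were recovered from the means, which are printed to 15 digits and are sums of whole reads divided by size factors. The 4 size factors (0.813 and 1.09 in knockdown, 0.918 and 1.23 in control libraries) came from genes with a single read. A combination of whole reads had to give the mean to its last digit, the fold change in a negative binomial fit at a dispersion of at least 0.005, at most 8-fold, 3-fold or 2-fold (means under 1000, to 3000 and above) between libraries of a group, and a Wald p within 5% of the range the deposited adjusted p allows. This left 1 combination for 14121 genes, 99.2%; 44 genes with means above 50000 were not tried. In 1000 genes of lower mean, the mean alone left 1 combination each, and it was the same in all 1000. Before p was used, 14062 genes had 1 combination. In the 605 of them whose p could be read back exactly, the refitted p was between 0.993 and 1.01 times the deposited one (1st to 99th percentile), and it differed by over 5% in 2. The condition on p then refused 13 single combinations and settled 72 genes with several. The standard error of that fit was used for intervals. The code was tested on simulated data. limma 3.58.1 (R 4.3.3) was run on log2 of normalised reads plus 1, and with each library left out. limma and the conditions on dispersion, spread and p were chosen after seeing the data.

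Coordinates and UTRs came from GENCODE 29, which matched 57433 of 58037 gene IDs, and microRNAs and promoters from RefSeq. Genes named in the text beside the 10 are DROSHA, the neighbours of BCR and ABL1 and, of each list, called genes and the 2 highest and 2 lowest fold changes. PIM2 and PIM3 were added as relatives of PIM1, and ODC1 as the row that the refitted p added. Cell type markers and genes that overlap or share windows with the 10 are also named. One gene that this rule names is not reported here. The 10 genes and the lists were chosen with earlier results of these data known.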

Additional observations from a re-analysis of the deposited data

How the results depend on the processing

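The count of the 10 genes called was 0 in the authors' test and stayed 0 with thresholds of 0.01 or 0.1, a log2 fold change of at least 1, Bonferroni adjustment, protein-coding genes adjusted alone, limma, and limma scaled to total reads. With limma and 1 library left out, it was 0 to 1. The call was STAT5A without the shallower knockdown library (adjusted p 0.041, log2 difference -0.57), where 239 of 14121 genes were called against 27 with all 4 libraries. The count over the wider lists was also 0 to 1 when a library was left out, the call being CISH without the deeper knockdown library (log2 difference 0.84, adjusted p 0.00058), where 146 genes were called. A lone library is assumed there to vary like those of the other group. Over these alternatives limma's smallest adjusted p was 0.041 for the 10 genes, and Bonferroni gave 1. With a library left out, the limma difference was -0.28 to 0.027 for BCR, -0.14 to 0.18 for ABL1 (-0.081 without the shallower knockdown library), -0.061 to 0.066 for STAT5B (-0.015 without the deeper knockdown library), -0.032 to 0.096 for CRKL and -0.39 to 0.015 for GAB2. These 5 changed sign, and the other 5 and DROSHA kept theirs. Re-centring on the median of all genes (-0.027) changed no sign. Scaling to total reads moved the median of all genes to 0.026 from -0.028 and reversed none of the 10.

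No paired analysis was possible because the recovered libraries could not be tied to replicate numbers. Count tests of other tools, TMM scaling and filters on low reads were not run. The half-widths of 0.26 to 0.35 of the limma intervals are without adjustment, and STAT5A at -0.46 was not called, so smaller changes of these genes may also go uncalled with 2 libraries a group.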
